A study of Mus musculus with 12 samples.

Results

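MBD2 sites were described beside H3K4me3 in day 5 C2C12 myotubes, from the peak lists of 1 MBD2 library and 1 H3K4me3 library. The members were the MBD2 peaks on chromosomes 1 to 19 and X whose local background did not exceed 10 fragments per base, 261 of the 302 deposited for myotubes and of 15875 MBD2 peaks in the 4 lists of the series. Of these 261, 208 overlapped an H3K4me3 peak by at least 1 bp and 53 did not. The H3K4me3 list held 26024 peaks on the same chromosomes. The limit on background fell in a wide gap, since the highest values inside it were 7.02 and 6.50 fragments per base and the lowest outside it were 38.5 and 82.3.

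The libraries came from CUT&RUN, an assay that brings a nuclease to antibody-bound chromatin inside opened cells and sequences what it cuts loose. C2C12 is an established line of mouse myoblasts that fuse into multinucleated myotubes when serum is lowered, here to 2% horse serum. The series covers MBD2, H3K4me3 and a control IgG at day 0, at day 1, in day 5 myotubes and in day 5 reserve cells (unfused cells parted from the myotubes by mild trypsin), with 1 library for each antibody and state and no genetic change named for any group. Fusion is never complete and the fractions were parted by detachment, so each may hold cells of the other. With 1 library a group, differences have no replicate check and carry no p-value. Intervals are exact 95% Clopper-Pearson intervals for shares and cover counting error only, and medians come with quartiles. The 4 IgG libraries were not analysed here, so the signal an unspecific antibody gives at these sites was not measured.

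MBD2 binds methylated CpG dinucleotides through its methyl-CpG-binding domain and joins the NuRD complex, which combines histone deacetylases with a nucleosome remodeller and is best known for repression. H3K4me3 is laid down by SET1 and MLL methyltransferases around the starts of transcribed and poised genes, mostly at CpG islands that are kept free of DNA methylation. The question set by profiling both in the same cells is where a reader of methylated DNA lies relative to the mark of active promoters.

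The label of the myotube fraction was checked in its H3K4me3 list. All 12 myotube genes examined, among them Myog, Ckm, Myh3 and Mymk, carried the mark at their promoters, against 1 at day 0 (Mylpf), 12 at day 1 and 11 in reserve cells. The count parts myotubes from day 0 cells but not from the other states. Width went further, since each of the 12 genes was covered most widely in myotubes. Ckm had 5001 bp there, while day 1 had 1282 bp and the reserve fraction 529 bp. For Mylpf, marked in every state, myotubes had 10708 bp, day 1 8248 bp, day 0 4503 bp and the reserve fraction 3522 bp. These widths rest on 1 library per state. Of 6 reserve cell genes 4 were marked, with Cd34 and Calcr unmarked, against 5 of 6 in reserve cells. Pax7 was covered over 4326 bp in myotubes, against 15513 bp in reserve cells, and Sdc4 went the other way with 7636 bp, against 3514 bp. Of 5 cycling genes 4 were marked (Mki67 over 2089 bp, against 3320 bp in reserve cells). Neuronal genes gave 2 of 5, blood genes 1 of 5 (Cd68, over 543 bp) and liver genes 0 of 4. What other cells add to the myotube lists was not tested.

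The sequences at the summits, the base of highest coverage in each peak, show how unlike these sites are. Each line gives the 100 bp around an MBD2 summit on the + strand of mm10 (RefSeq GRCm38.p6), with CpG dinucleotides in capitals. The first pair are strong sites at promoters with H3K4me3 and hold 9 and 10 CpGs. Another marked promoter site among the strongest, at the small nuclear RNA genes Gm24265 and Gm24407 (fold 8.45), held 1 CpG and is not printed.
Kat7 promoter, chr11:95309924-95310023: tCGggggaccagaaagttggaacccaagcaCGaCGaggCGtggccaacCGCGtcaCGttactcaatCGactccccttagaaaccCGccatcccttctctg
Tomm40 promoter, chr7:19715655-19715754: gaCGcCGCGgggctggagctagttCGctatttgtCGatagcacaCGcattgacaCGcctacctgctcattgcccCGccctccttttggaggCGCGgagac
The next lines are sites with H3K4me3 at or near muscle genes, and a strong site in an intron of 8430426J06Rik. They hold 2 or 3 CpGs each.
Acta1 promoter, chr8:123895600-123895699: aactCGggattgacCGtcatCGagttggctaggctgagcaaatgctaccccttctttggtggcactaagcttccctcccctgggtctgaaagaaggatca
Actn3 promoter, chr19:4878208-4878307: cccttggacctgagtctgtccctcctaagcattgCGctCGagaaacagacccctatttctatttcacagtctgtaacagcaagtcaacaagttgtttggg
15.7 kb upstream of Des, chr1:75344628-75344727: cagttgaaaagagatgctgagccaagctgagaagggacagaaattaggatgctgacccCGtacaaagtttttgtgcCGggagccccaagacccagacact
intron of 8430426J06Rik, chr15:81294880-81294979: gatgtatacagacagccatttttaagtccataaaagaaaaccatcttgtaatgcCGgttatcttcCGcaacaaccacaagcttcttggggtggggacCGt
The last lines are the strongest sites without H3K4me3. They are tandem repeats of 4-base units, with 2 CpGs in the first and 0 in the others.
intergenic, 55.8 kb upstream of Cdc42bpa, chr1:179904642-179904741: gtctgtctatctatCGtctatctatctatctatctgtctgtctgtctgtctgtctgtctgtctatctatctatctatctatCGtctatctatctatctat
intergenic, 299 kb upstream of Igbp1b, chr6:138957433-138957532: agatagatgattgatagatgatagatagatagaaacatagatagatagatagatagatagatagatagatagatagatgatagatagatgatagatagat
intergenic, 57.2 kb upstream of Cdc42bpa, chr1:179903222-179903321: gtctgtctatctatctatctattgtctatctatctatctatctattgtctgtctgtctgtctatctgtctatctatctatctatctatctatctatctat
intron of Olfr769, chr10:129114028-129114127: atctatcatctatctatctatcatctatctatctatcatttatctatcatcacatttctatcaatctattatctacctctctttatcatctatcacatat

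H3K4me3 peaks covered 43.7 Mb, 1.66% of chromosomes 1 to 19 and X, and held 79.7% of the MBD2 peaks (208 of 261, interval 74.3 to 84.4%). That is 4.76 MBD2 peaks per Mb under the mark and 0.0205 per Mb in the other 2590 Mb. At promoters, defined as the 1 kb either side of a transcript start, 131 of 133 MBD2 peaks lay under H3K4me3 (98.5%, 94.7 to 99.8%). Away from promoters 77 of 128 did (60.2%, 51.1 to 68.7%). Marked and unmarked MBD2 sites thus differed in place, since 63.0% of the 208 with H3K4me3 were at promoters (56.0 to 69.6%), against 2 of the 53 without (3.77%, 0.460 to 13.0%). Without the limit on background the share among unmarked sites was 21.5% of 79. Of all 26024 H3K4me3 peaks 50.4% were at promoters, with 33.2 of the 43.7 Mb covered, so sorting by the mark also sorts by place. The remaining sites with H3K4me3 fell in introns (41), in exons (6) and between genes (30), and those without fell in introns (25) and between genes (26).

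The enrichment of MBD2 itself did not part the classes. The authors' fold enrichment, a ratio of the pileup to the local background, had a median of 5.36 with H3K4me3 (quartiles 4.78 and 5.94) and also 5.36 without (4.82 and 6.19). The pileup, the number of fragments over the summit, had a median of 10 in both classes. Its range was 7 to 30 with H3K4me3 and 7 to 24 without, so every site rests on few fragments. Median peak width was 289.5 bp with H3K4me3 and 310 bp without, and median local background 0.866 fragments per base in both.

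Most marked sites lay inside the H3K4me3 peak. Of the 208, 180 were wholly contained in it (86.5%, 81.1 to 90.9%) and 200 had their summit inside it. The median distance from the MBD2 summit to the nearer H3K4me3 edge was 725 bp, 870 bp at promoters and 346 bp elsewhere. The lower quartile away from promoters was 131 bp. Within the peak the MBD2 summit ranged widely, with a slight lean to the middle. For the 200 inside, position was also read from the nearer edge (0) to the middle (0.5). Its median was 0.296 (interval 0.267 to 0.321), above the midpoint of that scale, where an even spread would put it. The middle 33.3% of the H3K4me3 peak held 80 of 208 MBD2 summits (38.5%, 31.8 to 45.4%), an interval that includes the 33.3% of an even spread. The same H3K4me3 peaks had their own summits there in 132 cases (63.5%, 56.5 to 70.0%). Distance between the MBD2 and H3K4me3 summits had a median of 376 bp (quartiles 110.5 and 785). At promoters it was 496 bp, and 23 of 131 pairs lay within 100 bp. Away from promoters it was 208 bp, and 24 of 77 pairs did, in H3K4me3 peaks that were also narrower.

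**Figure D1:**
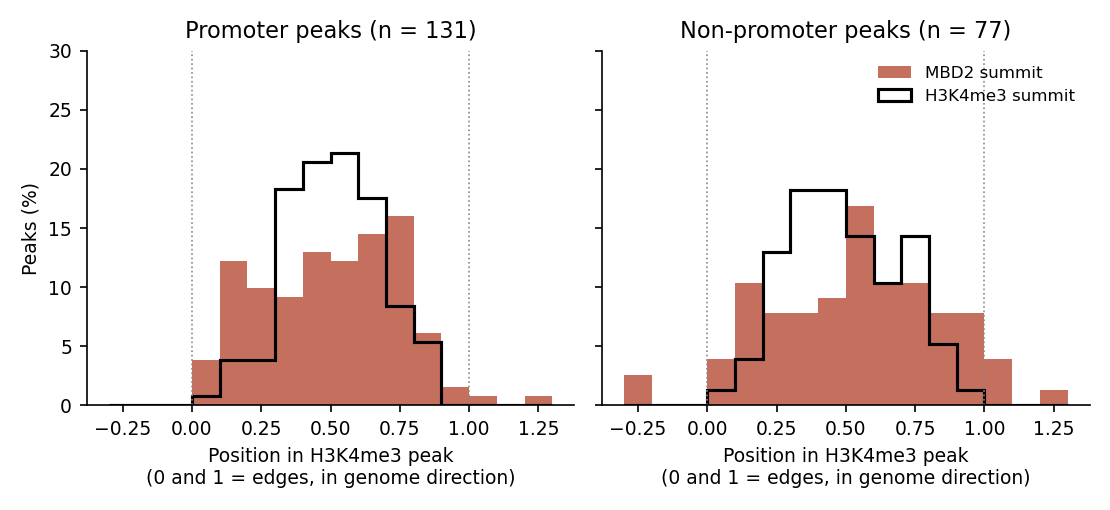
Position of summits within the H3K4me3 peak (0 and 1 are its edges, in genome direction) for 131 promoter and 77 non-promoter MBD2 sites; filled bars are MBD2 summits and outlines the summits of the same H3K4me3 peaks, as percent of peaks. MBD2 summits spread across the peak, 38.5% in the middle 33.3% of its length, while 63.5% of H3K4me3 summits lay there.

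Along the gene the summits were offset. At the 131 marked promoters the MBD2 summit lay at a median of -75 bp from the nearest transcript start, that is upstream of it (quartiles -272 and 154 bp), and 75 of 131 were upstream (57.3%, 48.3 to 65.9%). The H3K4me3 summit of the same peaks lay at a median of 262 bp downstream (quartiles -65 and 554 bp), and 35 of 131 were upstream (26.7%, 19.4 to 35.2%). Read along the nearest gene, the MBD2 summit was upstream of the H3K4me3 summit at 90 of 131 promoters (68.7%, 60.0 to 76.5%). Of the MBD2 summits, 111 of 131 lay within 500 bp of the start. For both summits, distances were taken from the start nearest the MBD2 summit. Closeness to the start can therefore not be compared between them. A promoter was called when a peak reached the 1 kb window, so the MBD2 distances are bounded by that rule and the H3K4me3 distances are not.

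**Figure D2:**
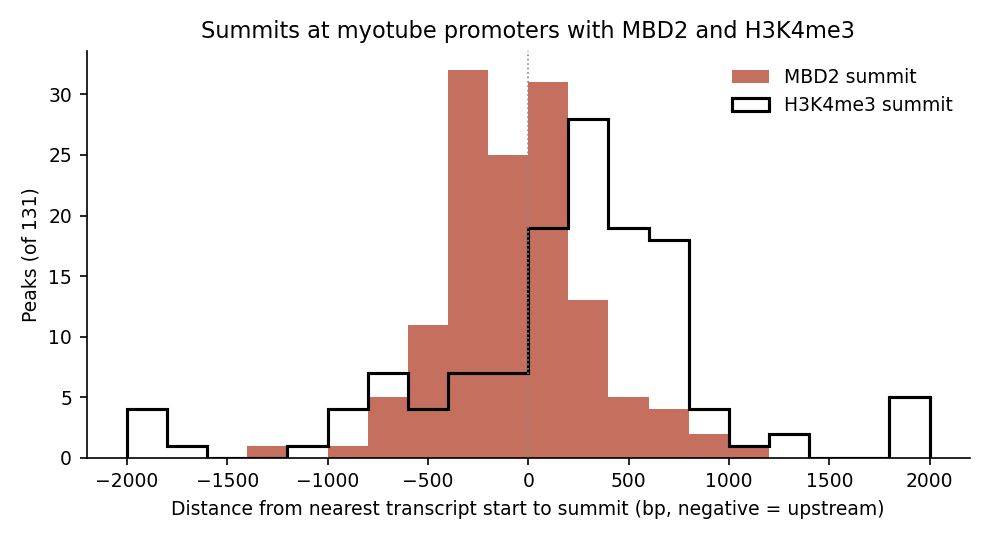
Distance in bp from the transcript start nearest the MBD2 summit to that summit (filled) and to the summit of the overlapping H3K4me3 peak (outline) at 131 myotube promoters, in 200 bp bins; 8 H3K4me3 summits more than 2 kb away are drawn in the outermost bars. MBD2 peaks around and just upstream of the start (median -75 bp), H3K4me3 downstream (median 262 bp).

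H3K4me3 peaks that held MBD2 were wider than those that did not. Of 13109 H3K4me3 peaks at promoters 141 held MBD2, 1.08%, and of 12915 elsewhere 64 did (0.496%, 0.382 to 0.632%). Median width at promoters was 3036 bp with MBD2 (quartiles 2268 and 4438) and 2195 bp without (1460 and 3208). Median H3K4me3 fold enrichment was 38.2 with MBD2 and 32.2 without, and median pileup 106 and 89 fragments in the same order. Away from promoters the median width was 1375.5 bp with MBD2 and 548 bp without, and the median H3K4me3 fold 8.43 and 4.95.

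The share of promoter H3K4me3 peaks holding MBD2 climbed with width. In 5 equal groups by width, narrow to wide, it was 0.343%, 0.610%, 0.915%, 1.33% and 2.17%. Wide peaks also hold more bases. Counted per Mb of H3K4me3 peak, the same groups held 4.69, 3.77, 4.14, 4.61 and 4.41 MBD2 peaks, with no order by width. In 5 equal groups by H3K4me3 fold enrichment, weak to strong, the density was 3.33, 4.21, 4.36, 4.44 and 4.57 per Mb, the weakest group resting on 8 MBD2 peaks. Promoter H3K4me3 held 4.34 MBD2 peaks per Mb and non-promoter H3K4me3 6.05 per Mb (144 peaks in 33.2 Mb and 64 in 10.6 Mb).

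**Figure D3:**
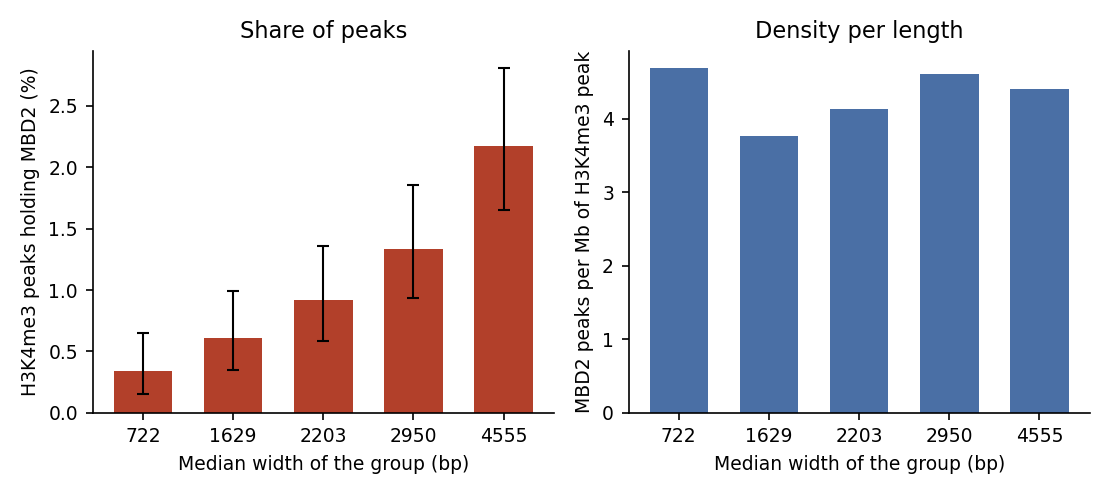
Promoter H3K4me3 peaks of myotubes in 5 equal groups by width, named by median width in bp; left, percent holding an MBD2 peak with exact 95% intervals; right, MBD2 peaks per Mb of H3K4me3 peak. The share runs from 0.343% to 2.17%, while the density stays between 3.77 and 4.69 per Mb.

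MBD2 lay at the promoters of 171 annotated genes, 124 of them protein-coding, which is 0.57% of the 21755 protein-coding genes. H3K4me3 lay at 57.8% of protein-coding promoters, and at each of the 124 the MBD2 peak overlapped it. The 4 gene entries whose MBD2 peak lay outside H3K4me3 were all non-coding, Gm33570 at one site, and Gm23137 with both entries of Rnu3b1 at another. Rnu3b1 is a U3 small nucleolar RNA gene with near-identical copies, so the place of its peak is uncertain. Without the limit on background the count was 19. H3K4me3 lay 411 bp from the Rnu3b1 site and 107329 bp from the Gm33570 site.

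Genes of several functions were among the 14 strongest marked promoters. Some serve mitochondria. Slc25a25, a calcium-regulated ATP-Mg/phosphate carrier, had an MBD2 summit with 18 fragments (fold 10.7) 238 bp upstream of its start, in an H3K4me3 peak of 6323 bp. Tomm40, the channel of the outer-membrane translocase, had 16 fragments (fold 9.11) 267 bp upstream, and Slc25a42, a coenzyme A carrier, 22 fragments (fold 8.42) 321 bp upstream. RNA and chromatin regulators were among them too. Cnot3, a subunit of the CCR4-NOT deadenylase, had 17 fragments (fold 9.65) 484 bp upstream. Kat7, the HBO1 histone acetyltransferase, had 23 (fold 9.46), and its summit was 227 bp inside the gene. Lsm4, a member of the ring that binds U6 RNA, had 13 (fold 7.51) with the summit on the start itself.

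Membrane traffic and cytoskeleton genes made up more of this group. Ap2a1, a subunit of the AP-2 clathrin adaptor, had 13 fragments (fold 7.88) 167 bp upstream of its start, and Leprot, an endosomal protein gene, 13 (fold 7.88) 254 bp upstream. Tubb4b, a beta-tubulin, had 19 (fold 7.32) 230 bp upstream. The other promoters among the 14 strongest were Slc35f5 (fold 8.45), Arrdc2 (7.88), Nlk (7.50), Ngdn (7.50) and Tmem109 (7.32), in H3K4me3 peaks of 1833 to 4798 bp. Of the 14, the summit was upstream of the gene's nearest start in 10, downstream in 3 and on it in 1.

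Muscle genes were looked at for both marks. Of 49 sarcomere and contraction genes 46 had H3K4me3 at the promoter, with a median width of 6294.5 bp, and 3 held MBD2 (6.12%): Acta1, Actn3 and Dysf. The share over all protein-coding promoters was 0.57%, and nothing is read from the gap, since the list was drawn up with the MBD2 genes known. Acta1 encodes skeletal alpha-actin. Its H3K4me3 was not called at day 0. It covered 2172 bp at day 1, then 9377 bp in the myotubes, and 1420 bp in the reserve cells. Its MBD2 peak, with 12 fragments (fold 6.97) 899 bp upstream of the start, was called in myotubes only. Those widths are of the widest H3K4me3 peak reaching the promoter window. At the MBD2 site itself, H3K4me3 was called at day 1 (801 bp) but not in reserve cells. At day 1, H3K4me3 was thus called at the site where MBD2 was not.

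Actn3, the alpha-actinin of fast fibres, was marked in all 4 states, over 3714 bp at day 0, 3868 bp at day 1, 6482 bp in the myotubes and 3623 bp in the reserve cells. Its start lies beside that of Zdhhc24, which shares both the MBD2 peak and the H3K4me3, so neither can be assigned to 1 of the genes. MBD2 was called in 3 of the states, with 22 fragments at day 0, 16 at day 1 and 11 in the myotubes. Dysf, the membrane repair protein dysferlin, was marked in all 4 states, and MBD2 was called with 4 fragments at day 0 and 10 in myotubes. Pileups are raw fragment numbers whose scale changes with depth, which is not given. The lowest local background was 0.360 fragments per base for day 0, 0.286 for day 1, 0.776 for the myotubes and 0.947 for the reserve cells.

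Among 18 myogenic regulators, all of them marked, 1 held MBD2. This was Tcf3, which encodes the E proteins that pair with MyoD, with 20 fragments (fold 6.63) 181 bp upstream of its start. Myog, marked over 4706 bp in myotubes, held no MBD2 peak in any state. Of 36 cell cycle genes 35 were marked and 2 held MBD2: Mcm7, a subunit of the replicative helicase, and Cdca2, a targeting subunit of protein phosphatase 1. The Cdca2 peak (17 fragments, fold 4.47) lies between it and Kctd9 and was counted for both.

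The other lists also held few genes with MBD2. Of 26 genes of NuRD and the methyl-CpG readers, 24 were marked and 1, Rbbp4, a histone-binding NuRD subunit, held MBD2 (7 fragments, fold 4.29). The list of H3K4 methylation writers, erasers and associated factors gave 1 of 20, the acetyltransferase gene Kat7, which is no H3K4 methyltransferase, RNA and mRNA turnover 2 of 26 (Cnot3 and Hnrnpa1), and mitochondrial import and carriers 2 of 19 (Tomm40 and Slc25a25). Ubiquitin ligases and adaptors gave 3 of 21 (Rnf5, Rab40c and Kctd9), and housekeeping genes 1 of 20 (Tubb4b). The peaks at Mcm7, Rbbp4 and Hnrnpa1 also lay at the promoters of Ap4m1, Zbtb8os and Cbx5 in that order. All 16 of these listed genes had H3K4me3 at the MBD2 peak. MBD2 was at no promoter of 21 satellite and reserve cell genes (18 marked), 20 fibroblast and matrix genes (16), 28 imprinted genes (18), 20 germline genes (0), 16 neuronal genes (9) or 12 blood genes (3). Nothing is read from these counts against 0.57%, since the lists were drawn up with MBD2 genes of these samples known.

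Away from promoters, the strongest marked sites were of several kinds. The first, in an intron of 8430426J06Rik with 14 fragments (fold 8.45), lay in an H3K4me3 peak of 1490 bp. One lay 1184 bp inside Slc27a1, a fatty acid transporter gene, under promoter H3K4me3 of 2887 bp, and 13 of the 77 were of this kind, under a mark that reached a promoter. A site 69.6 kb from Cryaa lay in an H3K4me3 peak of 569 bp that was called in myotubes alone. The others of the strongest 6 lay 86.2 kb from Mmaa, 15.5 kb inside Uck2 and 9.87 kb upstream of Pdgfb. Muscle genes chosen after their values were seen include Klhl40, a stabiliser of thin filament proteins, with MBD2 1185 bp upstream of the start (11 fragments, fold 6.76). Its H3K4me3 covered 7107 bp in myotubes and was not called there in the other states. Upstream of Des, the muscle intermediate filament gene, a site with 10 fragments (fold 6.19) lay in an H3K4me3 peak of 5438 bp.

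The sites without H3K4me3 formed a different set. Their median distance to the nearest H3K4me3 peak was 10268 bp (quartiles 580 and 49249), but 17 of 53 lay within 1 kb of one (32.1%, 19.9 to 46.3%) and 27 lay more than 10 kb away. The strongest MBD2 peak of the whole list was among them. It was 1913 bp wide with 24 fragments (fold 13.4), lay 55.8 kb upstream of Cdc42bpa, and a second peak 57.2 kb upstream had 15 (fold 8.95). These, the site near Igbp1b (15 fragments, fold 9.01) and the one in Olfr769 (15, fold 8.57) are the repeats printed above. The letters GATAGATA, on either strand, occurred within 300 bp centred on the summit in 5 of 53 sites without H3K4me3, in 0 of 208 with it and in 1.63% of 51170 windows of that length spaced 50 kb apart through the genome. The fifth lay 50.7 kb inside Rasgrf1, an imprinted gene (9 fragments, fold 5.63). The motif was picked after these sequences were seen.

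Next in strength without H3K4me3 were sites with little repeat-masked sequence. They lay 138 kb from Runx1, a transcription factor gene (16 fragments, fold 7.39), 59.3 kb inside Ccdc141 (12, fold 7.32), 24.9 kb from Gja5, a connexin gene (11, fold 6.76), and 9.31 kb inside Myo10, an unconventional myosin (14, fold 6.67). H3K4me3 lay 5393 to 24111 bp from these. More than 50% of the 300 bp was repeat-masked in 7 of 208 sites with H3K4me3 and in 11 of 53 without it (20.8%, 10.8 to 34.1%), against 27.0% of the genome windows.

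Base composition differed by place, and away from promoters the CpG ratio hardly differed by mark. At promoters with H3K4me3 the 300 bp around the MBD2 summit had a median GC content of 59% and 17 CpGs, a ratio of observed to expected CpG of 0.694. Non-promoter sites with H3K4me3 had 52.7% GC, 4 CpGs and a ratio of 0.220, and all 53 sites without H3K4me3 had 47% GC, 3 CpGs and 0.202. The genome windows had 41.7%, 2 and 0.149. The 51 unmarked sites away from promoters had 47% GC, 3 CpGs and a ratio of 0.211. Away from promoters, intervals of the median overlapped between marked and unmarked sites. They were 0.183 to 0.275 and 0.175 to 0.243 for the ratio, and 50.3 to 54.7% and 44 to 51% for GC. Island-like composition, at least 50% GC with a CpG ratio of at least 0.6, was met by 79 of 131 promoter sites with H3K4me3 (60.3%, 51.4 to 68.7%). It was met by 9 of 77 non-promoter sites with H3K4me3 (11.7%, 5.49 to 21.0%) and by 0 of 53 without it, which allows up to 6.72%.

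Against other marked promoters, the comparison depended on the reference set. The sets below differ in members as well as in window placement. The first holds starts of protein-coding genes only, the second H3K4me3 peaks at starts of any gene, as the MBD2 promoter sites are. Windows at the same median offset, 75 bp upstream of 23378 marked protein-coding starts without MBD2, had a median of 63% GC and a CpG ratio of 0.797, and 73.7% of them were island-like. Centred instead on the summits of the 12968 promoter H3K4me3 peaks without MBD2, windows had 61% GC and a ratio of 0.670, and 57.2% were island-like. GC content at the MBD2 promoters was below both sets, and the CpG ratio and island-like share were below the offset windows. Against the summit windows both lay within counting error (intervals 0.660 to 0.757 and 51.4 to 68.7%).

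**Figure D4:**
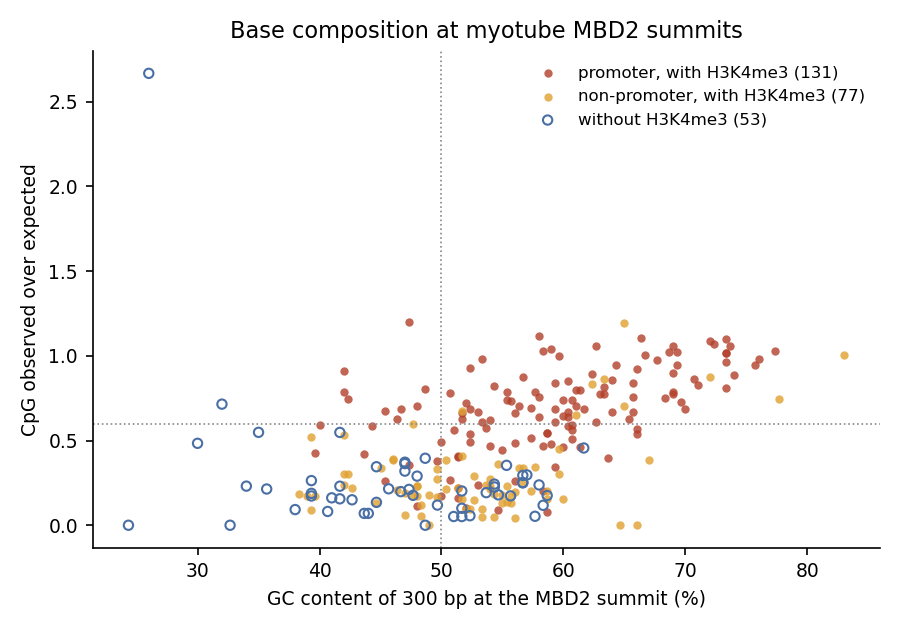
GC content (percent) and ratio of observed to expected CpG in 300 bp at each myotube MBD2 summit; dotted lines mark 50% and 0.6. Promoter sites with H3K4me3 reach the upper right, where none of the 53 sites without H3K4me3 lie; the lone open point at the top left is the Olfr769 repeat, whose ratio rests on few C or G bases.

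Short motifs, searched on both strands in the same 300 bp windows, were compared in the same way. GGGCGG, the core of SP and KLF sites, occurred in 58.0% of the promoter sites with H3K4me3 (49.1 to 66.6%). It occurred in 66.4% of the offset windows at marked starts without MBD2 and in 44.8% of the H3K4me3 summit windows. CCAAT, bound by NF-Y, occurred in 51.1% of those MBD2 sites (42.3 to 60.0%), against 35.4% and 22.9% in the same sets and 40.2% of genome windows. The share with CCAAT was above both promoter sets, and close to the 51.6% of 2459 marked promoter sites of MBD2 at day 0. CCGGAAG, the core of ETS sites, gave 12.2%, against 17.9% and 7.93%.

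Away from promoters, CAGCTG, an E-box of the kind MyoD and myogenin bind, occurred in 15 of 77 sites with H3K4me3 (19.5%, 11.3 to 30.1%) and in 13 of 51 without it (25.5%, 14.3 to 39.6%). Non-promoter H3K4me3 peaks without MBD2 gave 22.3% and genome windows 10.6%. The shares of both MBD2 classes therefore lay within counting error of other marked sites. TGANTCA, the AP-1 site, occurred in 3 of 51 non-promoter sites without H3K4me3 (5.88%, 1.23 to 16.2%). The 9002 day 0 MBD2 sites of that kind held it in 42.4% (41.4 to 43.5%), and genome windows in 8.99%. The 2 lists are from different libraries, and the difference was not tested.

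Set beside the other states, the 3 classes of myotube MBD2 sites differed in where else the mark was called. Of the 131 promoter sites 124 lay under H3K4me3 at day 0, 124 at day 1 and 123 in reserve cells. Of the 77 non-promoter sites with H3K4me3, 34 lay under it at day 0 (44.2%, 32.8 to 55.9%), 35 at day 1 and 30 in reserve cells, and 40 had it in myotubes alone. Of the 53 sites without it in myotubes, 1 had it at day 0, 2 at day 1 and 0 in reserve cells. The contrast between promoters and other places was not particular to MBD2. Of myotube H3K4me3 peaks without MBD2, 91.2% of 12968 at promoters and 35.7% of 12851 elsewhere overlapped day 0 H3K4me3. Of those holding MBD2, 134 of 141 at promoters and 31 of 64 elsewhere (48.4%) did. The 40 sites marked in myotubes alone lay in H3K4me3 peaks with a median width of 1107.5 bp and fold of 6.52, and the other 37 in peaks of 1988 bp and 17.9. They include sites at Slc4a3 (an anion exchanger, H3K4me3 over 12465 bp) and Klhl40.

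MBD2 peaks of the other states were set against the same sites. Of the 131 promoter sites 88 overlapped an MBD2 peak at day 0, 40 at day 1 and 15 in reserve cells. Of the 77 non-promoter sites with H3K4me3, 37, 4 and 3 did, and of the 53 without it 22, 5 and 1. The lists of the other states held 14919, 425 and 69 MBD2 peaks under the same rule, so the number available to overlap differed widely. MBD2 was called in all 4 states at 18 of the 261 sites, and 17 of these had H3K4me3 in myotubes (94.4%, 72.7 to 99.9%). That interval includes the 79.7% over all 261 sites. The 18 include promoters of the corepressor scaffold Sin3a and the histone demethylase Kdm4a, as well as Tomm40, Tubb4b, Tcf3, Irx3 and Rnf5. The site without H3K4me3 lay 295 kb from Dusp4. At Tomm40 the MBD2 pileup was 118 fragments at day 0, 39 at day 1, 16 in the myotubes and 15 in the reserve cells, and H3K4me3 covered 3706, 2890, 2464 and 2667 bp in that order.

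**Figure D5:**
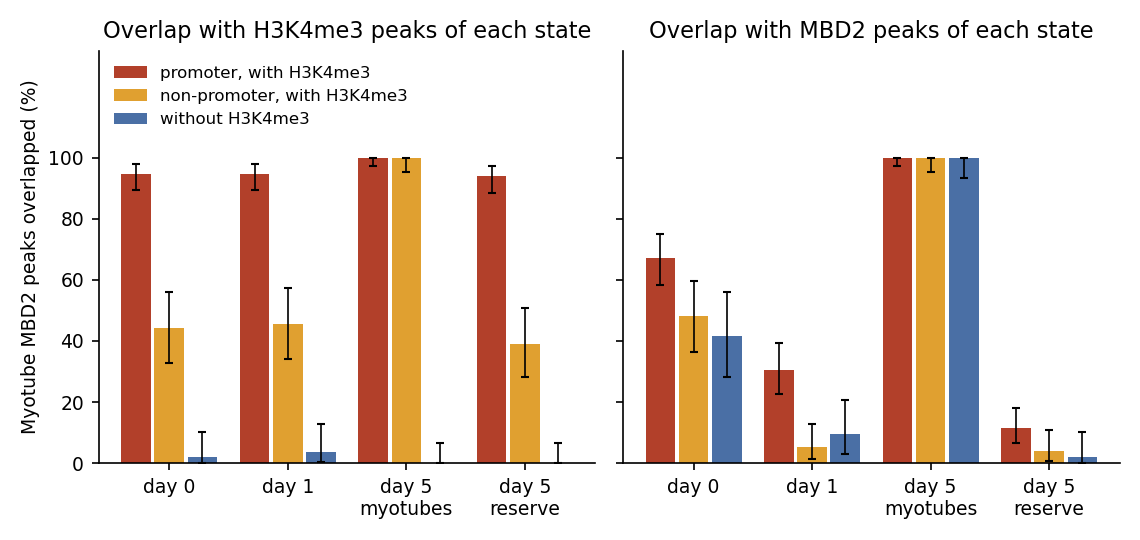
Percent of myotube MBD2 sites that overlap an H3K4me3 peak (left) or an MBD2 peak (right) of each cell state, for 131 promoter and 77 non-promoter sites with H3K4me3 and 53 without it in myotubes; bars carry exact 95% intervals. The promoter sites are 93.9% to 94.7% marked in the other states and the non-promoter ones 39.0% to 45.5%; the myotube bars are set by the classes themselves.

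By its own H3K4me3 list, the share of MBD2 peaks under the mark was 36.3% at day 0 (5418 of 14919, 35.5 to 37.1%), 64.5% at day 1 (274 of 425, 59.7 to 69.0%), 79.7% in the myotubes and 72.5% in the reserve cells (50 of 69, 60.4 to 82.5%). Myotubes had the longest H3K4me3 list. With each list limited to the 15910 strongest H3K4me3 peaks, as many as the shortest list held, the shares were 30.2%, 60.0%, 70.9% and 72.5%, and myotubes no longer stood above reserve cells. With the MBD2 lists limited to the 261 strongest peaks, day 0 gave 62.8% and day 1 69.3%, intervals of 56.7 to 68.7% and 63.4 to 74.9%.

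By chromosome, the shares of MBD2 and H3K4me3 peaks were close on some, such as 2 (8.05% and 8.01%) and 11 (8.43% and 8.60%). On others they lay apart. The examples below rest on 26 MBD2 peaks or fewer each, and no intervals were computed. Chromosome 1 held 26 MBD2 peaks, 9.96% of them, and 6.08% of the H3K4me3 peaks. Chromosome 15 held 25 MBD2 peaks, 9.58% of them, and 4.90% of the H3K4me3 peaks, and chromosome 8 held 24, 9.20% and 5.86%. X held 1 MBD2 peak and 2.26% of the H3K4me3 peaks. The median local MBD2 background was 1.06 fragments per base on chromosome 15 and 1.15 on chromosome 8, above the 0.776 to 0.914 of every other chromosome, with 0.866 on chromosome 1. The part of that background in the counts was not tested.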

How the data were processed

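MBD2 and H3K4me3 CUT&RUN peaks came from 8 deposited lists, 1 library each. The submitters' processing notes name Trim Galore, Bowtie2 on mm10, SAMtools and, for peaks, MACS2. Not given in the sources used here are their versions and settings, read totals and any use of IgG as control. Each list gives, per the file headers, peak length, pileup (a signal, whole fragments over the summit), fold enrichment (a ratio to local background) and, per the deposited column order, −log10 p-value and −log10 q-value. Local background was computed as (pileup + 1)/fold − 1. The titles' abbreviations D5MT and D5RC were read as day 5 myotubes and reserve cells.

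Overlaps, positions and shares were computed in Python 3.11.15 with pandas 2.3.3 and SciPy 1.17.1, and checked on simulated intervals with known answers. Genes were those of the GENCODE M21 basic annotation, a promoter being 1 kb either side of any transcript start. Sequences came from RefSeq GRCm38.p6 through pysam 0.24.0. The genes named are the 14 strongest marked promoters, the unmarked promoters, the 6 strongest marked and 8 strongest unmarked non-promoter sites by nearest gene, every listed gene with MBD2, and others said to be chosen afterwards; genes shared by all 4 states and those marked in myotubes alone were also chosen afterwards. Predicted genes were passed over. Sequences shown are from the strongest sites of each class free of exons, with 3 muscle sites added. The marked promoter site at Gm24265 and Gm24407 was left out. Members, lists and tests were chosen with earlier results of these data known. Alternatives varied the background limit, the q-value, the promoter window, the overlap rule and the H3K4me3 list.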

Additional observations from a re-analysis of the deposited data

Results flagged for a closer look

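26 of the 287 myotube MBD2 peaks on chromosomes 1 to 19 and X had a local background above 10 fragments per base and were left out of every comparison. Their pileup ran from 108 to 61010 fragments and their fold enrichment from 1.40 to 2.80. None of them overlapped H3K4me3.

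A further 15 deposited MBD2 peaks lay on other sequences and were not compared: 13 on the unplaced sequence chrUn_JH584304, 1 on Y and 1 on an unlocalised sequence of chromosome 4.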

How the results depend on the processing

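Of 94 values recomputed, 62 kept within the interval of the main value (counts within 1.5 times) and 32 moved. Reversal of a difference was not scored. Without the limit on background the overlap share was 72.5% (reserve cells 53.2%), the promoter share of unmarked sites 21.5%, their MBD2 fold 4.82 and CpG ratio 0.25, and 19 genes had MBD2 without H3K4me3. With −log10 q of at least 5, 54 MBD2 peaks were left: promoter share without H3K4me3 0%, summits in the middle 33.3% of the H3K4me3 peak 47.6%, MBD2 fold 6.96 with and 7.04 without H3K4me3, 36 genes with H3K4me3 at MBD2 and 0 without. With the stronger 50% of H3K4me3 peaks the overlap share was 63.2%, the promoter share of marked sites 76.4%, the distance between summits 489 bp, the H3K4me3 width without MBD2 2444 bp and the genes without H3K4me3 11. With as many H3K4me3 peaks as the shortest list the overlap share was 70.9% (day 0 30.2%), the promoter share of marked sites 69.7%, the H3K4me3 width without MBD2 2362 bp and the genes without H3K4me3 7. MBD2 peaks within 1 kb of H3K4me3 were 86.2%. Merging H3K4me3 peaks 500 bp apart gave a width without MBD2 of 2243 bp, and all H3K4me3 peaks as reference gave 2515 bp with and 1206 bp without MBD2. In 100 bp windows the CpG ratio without H3K4me3 was 0.142. Protein-coding genes without H3K4me3 at MBD2 were 0. With as many MBD2 peaks as myotubes held, day 0 gave 62.8% and day 1 69.3%. The causes were not tested.

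No paired analysis was possible because each group is 1 library and the labels give no replicate numbers. Members rest on 7 to 30 fragments at the summit, so weaker sites were not detectable at this depth, and absence of a peak is not absence of MBD2.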
